A study of Mus musculus with 44 samples.

Results

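Bone marrow and spleen of vehicle-treated B6C3F1 mice, a hybrid laboratory strain, were set against each other at 7 d. The comparison took the 5 arrays labelled bone marrow, vehicle, 7 days and the 5 arrays labelled spleen, vehicle, 7 days, which are 10 of the 44 arrays of the series. These labels define the arrays that enter the comparison. The series as a whole tested 2BE (2-butoxyethanol, a glycol ether solvent) against vehicle in liver, spleen and bone marrow, with 4 h and 7 d groups, and the question here is how the 2 blood-forming organs differ without the compound. Marrow came from the right humerus and spleen from a part of a cross-section, so both are mixtures of all cells of the organ. The treatment field calls all 10 samples control, and the sources used here give neither the vehicle nor the age and sex of the mice. Nothing in the labels says that the arrays of a tissue come from separate animals, so the p-values measure only the spread between these arrays. Per the labels, marrow RNA was isolated with a bone marrow RNA kit and spleen RNA on mini columns, so tissue and kit cannot be told apart in any difference below.

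Marrow is the main site of blood formation in the adult mouse. Stem cells, granulocyte, red cell, platelet and B cell precursors lie there among bone-forming cells, fat cells and stromal cells that make Cxcl12. The spleen filters blood in its red pulp, where macrophages take up old red cells and recover their iron, and it houses mature B and T cells in the white pulp, bordered by the marginal zone with its own B cells and macrophages. In the mouse, unlike in the adult human, the red pulp also goes on making red cells, platelets and some granulocytes. A contractile capsule and muscular strands hold the organ together.

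All values below are log2 intensities of 1 probe set for each gene, after the 10 arrays were brought to 1 common distribution, and a difference is the marrow mean minus the spleen mean with its standard error (SE). A gene was called when limma gave an adjusted p under 0.05 and the tissues differed by at least 2-fold, which is 1 on this scale. Of 18193 genes, 14.2% were called, 1369 (7.52%) of them higher in marrow and 1211 (6.66%) higher in spleen. Counts of list members below are to be read against these shares, since a few called members of a list can lie near them. A limit of 8-fold (3 on the log2 scale) left 100 genes (0.55%) higher in marrow and 81 (0.445%) higher in spleen. Without the fold limit 75.5% of the genes passed, and for 63.1% the arrays of the tissues did not overlap, so neither a small difference nor a lack of overlap sets a gene apart here. The median of all genes was 0.085. The share of calls that were higher in marrow was 53.1%, against 36.4% when the deposited values were used without the common distribution, a setting that moved the median of all genes to -0.147. The deposited medians were 87.8 to 89.6 in marrow and 109 to 111 in spleen. Arrays of the same tissue correlated at 0.992 or more, and arrays of different tissues at 0.914 to 0.933. Control probe sets at the 3′ and 5′ ends of a transcript were set against each other, 3′ minus 5′. Those of Gapdh differed by -0.076 ± 0.087 in marrow and 0.274 ± 0.025 in spleen (SD, n = 5 each, exact two-sided permutation p = 0.00794, the smallest possible). Those of Tfrc differed by 1.63 ± 0.09 in marrow and 1.74 ± 0.15 in spleen (exact permutation p = 0.19), and those of Pcx by 1.12 ± 0.11 in marrow and 0.787 ± 0.356 in spleen (exact permutation p = 0.0873). Those of Actb, which lie near the top of the scale, differed by 0.156 ± 0.024 in marrow and 0.317 in each spleen array (exact permutation p = 0.00794). Without the common distribution the spleen arrays were not identical. Actb then differed by 0.191 ± 0.026 in marrow and 0.250 ± 0.014 in spleen (exact permutation p = 0.00794). Elane, Rag1 and Ibsp, which mark marrow and bone, were higher in each marrow array than in any spleen array, and Tlx1, Cr2 and Marco, which mark spleen, were higher in each spleen array than in any marrow array. The part of RNA integrity in the differences below was not tested.

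**Figure D1:**
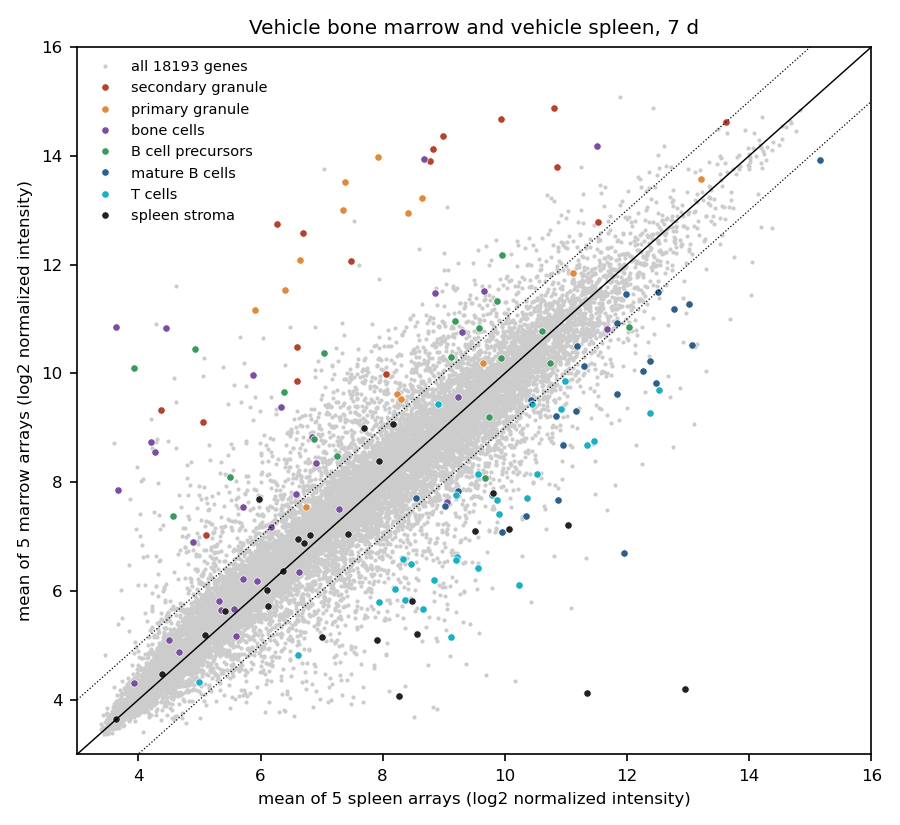
Mean log2 intensity of 5 marrow arrays (vertical axis) against that of 5 spleen arrays (horizontal axis) for 18193 genes, with equality as a solid line and 2-fold differences as dotted lines. Many granule, bone and B cell precursor genes lie above the lines, and many mature B cell and T cell genes and some spleen stromal genes below them.

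The spleen arrays were not alike in everything. Spleen replicate 1 had lower values for red cell and cell division genes than the other 4, and fat cell genes varied widely among the spleen arrays. Counts of the lists of red cell, haem, iron, mitosis and replication genes, and the values of some of their named genes, are given with and without that array. The same marrow arrays were also set against the 4 vehicle spleens of the 4 h group. Those values share the marrow arrays with the main comparison, so they are given side by side, without a test between them. Those 4 h spleens were not alike either. Array 3 held the highest list means of the 4 for granule, mature neutrophil, red cell and mitosis genes. Values against the 4 h spleens are given without array 3 where it moves them most, a setting added after the data were seen. The other 3 still differed in neutrophil genes. Their mature neutrophil mean was 9.33 in array 4, against 8.44 and 8.48 in arrays 1 and 2. Mmp8 had 10.86 in array 4, near the 10.96 of array 3, against 7.85 and 8.02 in arrays 1 and 2. Leaving out array 3 therefore does not make the 4 h spleens alike for these genes.

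**Figure D2:**
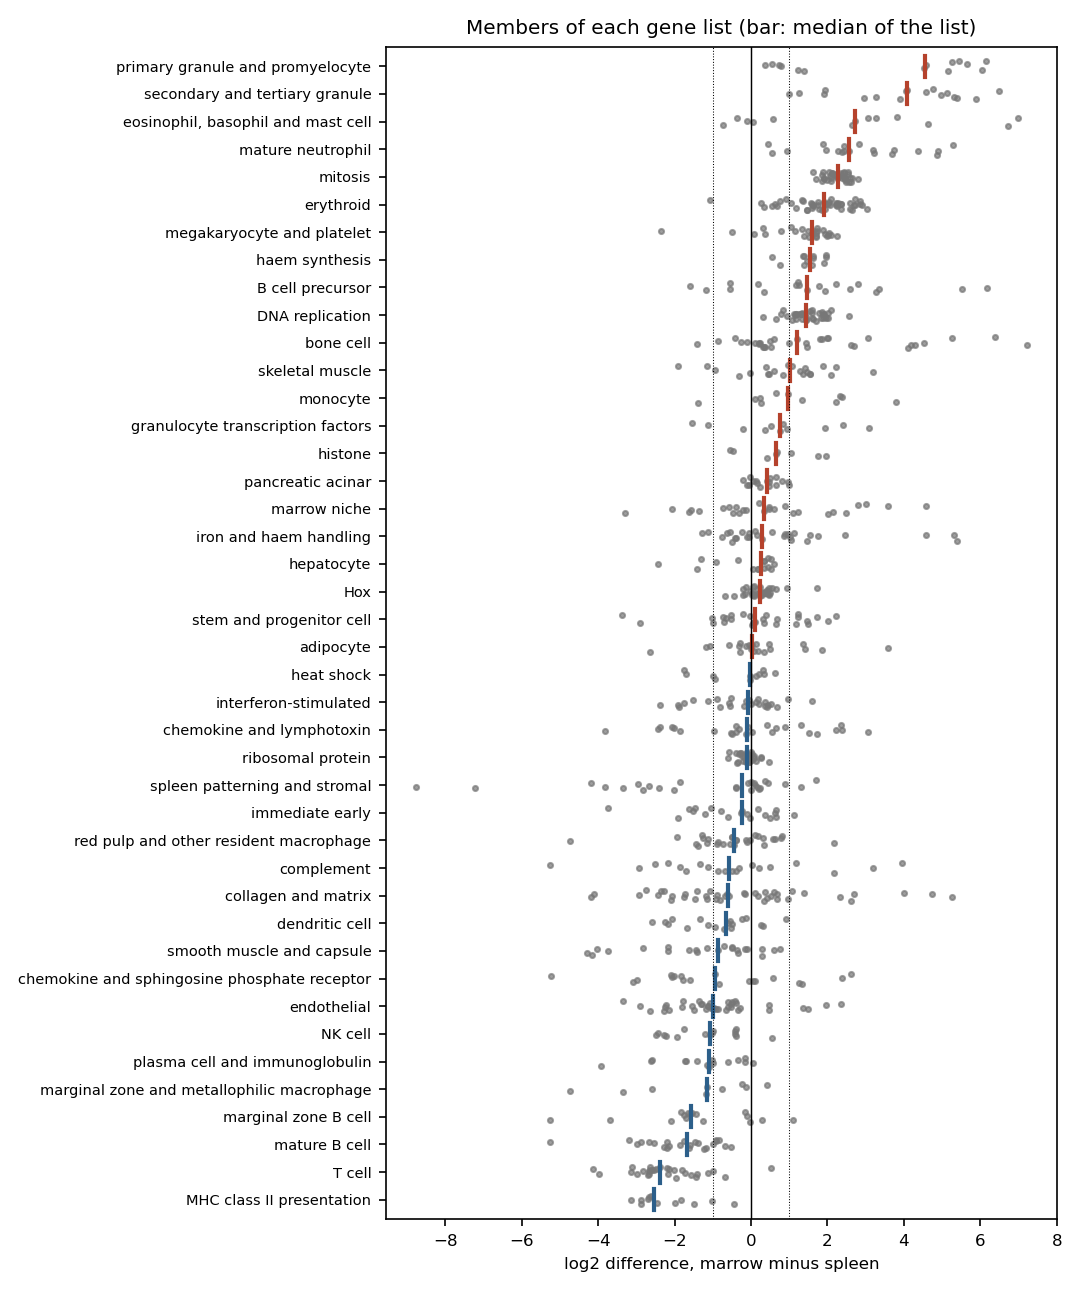
Log2 difference, marrow minus spleen, of each measured member (grey points) of 42 gene lists, with the median of each list as a bar and the 2-fold limits as dotted lines. The medians ran between 4.56 for the primary granule genes and -2.54 for MHC class II presentation.

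Genes of the neutrophil granules showed the highest list medians. Neutrophils fill their granules in a fixed order, so primary granule proteins mark promyelocytes, secondary granule proteins mark myelocytes and later stages, and receptors such as Cxcr2 mark mature cells. Of 14 measured primary granule genes, 10 were higher in marrow, where 7.52% of all genes were, and 0 in spleen, with a median of 4.56. Elane, neutrophil elastase, had 13.47, 13.50, 13.51, 13.49 and 13.62 in the 5 marrow arrays, against 7.47, 7.12, 7.49, 7.67 and 7.18 in the 5 spleen arrays. All marrow values lay far above all spleen values, with a difference of 6.14 ± 0.09 and an adjusted p of 1.21e-14. Mpo, myeloperoxidase, had 14.03, 13.91, 13.98, 13.98 and 14.00 in the 5 marrow arrays, against 7.97, 7.63, 8.07, 8.25 and 7.70 in the 5 spleen arrays. Its difference was 6.05 ± 0.10 (adjusted p = 2.89e-14), a 66.4-fold higher level in marrow. Both differences were smaller against the 4 h spleens, where Mpo had 11.10, 8.75, 13.33 and 9.82 in the 4 arrays. Array 3 lay within 1 log2 unit of the marrow mean, and the difference was 3.13 ± 0.70 (adjusted p = 0.00219), or 3.99 without that array. Elane gave 3.27 there, and 4.04 without array 3. The serine proteases Prtn3, proteinase 3, and Ctsg, cathepsin G, averaged 13.01 ± 0.03 in marrow and 7.35 ± 0.28 in spleen for Prtn3 and 12.09 ± 0.05 in marrow and 6.65 ± 0.04 in spleen for Ctsg (SD, n = 5 each). Prtn3, set against 4 h spleens, gave 2.27 and Ctsg 2.77, or 3.18 and 3.87 without array 3. Prtn3 had 13.33 in array 3, above the marrow mean. Ms4a3, a membrane protein of granulocyte and monocyte progenitors, was higher by 5.25 ± 0.07, and Fcnb, ficolin B, by 5.15 ± 0.05. A further 4 members of the list were not called, and the list ran between 0.37 and 6.14. As in all bulk tissue, more cells of a type and more RNA per cell cannot be told apart.

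The promoters of Elane and Mpo are shown because both genes rank among the largest differences in marrow and both are known targets of the factors PU.1, which binds GGAA cores, and C/EBP. The sequences are from RefSeq, on GRCm38.p6, plus strand, at chr10:79886062-79886361 for Elane and chr11:87793534-87793833 for Mpo, from 250 bases before to 50 bases after the annotated start. Capitals mark GAGGAAGT, which was chosen after the promoters had been read, and matches to TTNNGNAA, the outline of a C/EBP site, would be in capitals too.
Elane: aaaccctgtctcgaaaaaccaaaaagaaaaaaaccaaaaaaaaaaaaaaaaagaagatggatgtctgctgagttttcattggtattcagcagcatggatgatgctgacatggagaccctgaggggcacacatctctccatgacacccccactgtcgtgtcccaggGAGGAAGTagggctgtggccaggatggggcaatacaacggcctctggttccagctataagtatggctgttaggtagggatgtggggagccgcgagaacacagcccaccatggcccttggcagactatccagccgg
Mpo: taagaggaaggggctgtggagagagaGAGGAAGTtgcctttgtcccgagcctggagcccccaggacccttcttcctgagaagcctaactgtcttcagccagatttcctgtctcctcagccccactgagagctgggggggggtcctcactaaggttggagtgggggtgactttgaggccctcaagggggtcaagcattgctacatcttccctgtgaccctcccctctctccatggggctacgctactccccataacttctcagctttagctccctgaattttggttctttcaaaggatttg
GAGGAAGT occurred, on either strand, in 3 of the 12 primary granule genes with a promoter in the table (25.0%), against 3.28% of all 27025 promoters. These were Elane, Mpo and Prtn3. As the letters were chosen after the promoters of Elane and Mpo had been read, that choice in part set the share of the list. The comparison with all promoters is therefore no test. Neither promoter shown holds TTNNGNAA, which occurred in 5 of 12 list members (41.7%) and in 40.7% of all promoters. A match describes letters and not binding.

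Every measured secondary or tertiary granule gene was called higher in marrow, 17 of 17, with a median of 4.07. Mmp8, neutrophil collagenase, had 12.90, 12.59, 12.74, 12.78 and 12.68 in the 5 marrow arrays, against 6.53, 6.20, 6.05, 6.35 and 6.18 in the 5 spleen arrays. The tissues were separated by 6.48 ± 0.08 (adjusted p = 4.21e-15), and by 3.19 against 4 h spleens. Ltf, the iron-binding lactoferrin, averaged 14.37 ± 0.04 in marrow and 8.98 ± 0.37 in spleen, and Lcn2, which binds bacterial siderophores, 14.12 ± 0.08 in marrow and 8.82 ± 0.38 in spleen (SD, n = 5 each). Cd177, a neutrophil surface protein, was higher by 5.88 ± 0.10, and Chil3, a chitinase-like protein, by 5.13 ± 0.13. Camp, the precursor of the antimicrobial peptide CRAMP, was higher by 4.75 ± 0.13, and Ngp, neutrophilic granule protein, by 4.07 ± 0.14. Ceacam10 was higher by 4.96 ± 0.11, but its 2 other probe sets gave 0.69 to 4.70.

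Of 19 genes of mature neutrophils, 16 were higher in marrow, with a median of 2.55. S100a8 and S100a9, which form the calcium-binding complex calprotectin, were both called. S100a9 had 15.12, 15.07, 15.07, 15.07 and 15.07 in the 5 marrow arrays, against 12.26, 11.52, 12.05, 11.84 and 11.72 in the 5 spleen arrays, a difference of 3.20 ± 0.11. S100a8 averaged 14.87 ± 0.02 in marrow and 12.43 ± 0.30 in spleen (SD, n = 5 each), a difference of 2.44 ± 0.11. In marrow 3 arrays held the identical S100a8 value of 14.88, and 4 an identical S100a9 value, near the top of the common distribution. The small marrow spread of both genes follows in part from that scale. Wfdc21 was higher by 5.27 ± 0.08, Padi4, which citrullinates histones in neutrophils, by 4.89 ± 0.11, Stfa2l1, a stefin, by 4.86 ± 0.14, Trem3, a myeloid receptor, by 4.38 ± 0.08, Hdc, which makes histamine, by 3.74 ± 0.08, and Fpr2, a formyl peptide receptor, by 3.69 ± 0.08. In the same order these genes gave 2.92, 2.77, 1.37, 2.97, 1.90 and 2.29 against the 4 h spleens. The 4 h spleens, set against the same marrow arrays, gave 10 of 19 higher in marrow, 1 higher in spleen and a median of 1.21. The gene higher in those spleens was Il1b, an inflammatory cytokine, at -1.11, named after its value was seen, and S100a8 was no longer called at 0.99, although it was called at 1.25 without array 3. The primary granule list then had 11 higher in marrow with a median of 2.27, and the secondary granule list 15 with 3.03. The mean of the primary granule list was 11.50 to 11.66 in the marrow arrays, against 9.42, 8.53, 10.93 and 9.01 in 4 h spleen arrays 1 to 4. Without array 3 the counts higher in marrow were 11, 16 and 14, with medians of 2.93, 3.57 and 1.53 for primary granule, secondary granule and mature neutrophil genes. All 3 medians stayed above 0 and under those against 7 d spleens.

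Transcription factors of granulocytes were divided. Of 11, 3 were higher in marrow and 2 in spleen (median 0.76). Gfi1, a repressor needed to make neutrophils, averaged 8.91 ± 0.16 in marrow and 6.49 ± 0.11 in spleen (SD, n = 5 each), a difference of 2.41 ± 0.08. Klf5 was higher in marrow by 3.09 ± 0.07 and Cebpd by 1.94 ± 0.13, although other probe sets gave 0.31 to 1.76 for Klf5 and 0.27 for Cebpd. Irf8, which directs cells to the monocyte and dendritic lines and is also made by B cells, was higher in spleen, at -1.13 ± 0.05, and Ets1, a factor of lymphocytes, at -1.54 ± 0.05. Irf8 was not called against the 4 h spleens, at -0.64, or with each array centred on its median, at -0.87.

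Eosinophil, basophil and mast cell genes included the named genes that ranked next to Ibsp in marrow. Of 13, 8 were higher in marrow and 0 in spleen, with a median of 2.72. Epx, eosinophil peroxidase, had 12.57, 11.20, 11.46, 11.74 and 11.04 in the 5 marrow arrays, against 4.69, 4.67, 4.60, 4.66 and 4.47 in the 5 spleen arrays. Marrow replicate 1 held the highest value, and the difference was 6.98 ± 0.22 (adjusted p = 7.76e-12). Prg2, the major basic protein of the eosinophil granule, averaged 13.75 ± 0.28 in marrow and 7.03 ± 0.23 in spleen (SD, n = 5 each), a difference of 6.72 ± 0.13. Mcpt8, a protease of basophils, was higher by 4.62 ± 0.10. Siglecf, a lectin of eosinophils, was higher by 3.82 ± 0.13, and both Ms4a2 and Fcer1a, chains of the high-affinity IgE receptor, by 3.27 ± 0.07 and 3.06 ± 0.12. Spleen means of Epx, Siglecf, Ms4a2 and Fcer1a lay below 5.14, the lower quartile over all probe sets, where the size of a difference is least certain.

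Monocyte genes were less one-sided, with 5 of 11 higher in marrow, 1 in spleen and a median of 0.97. F13a1, coagulation factor XIII A of monocytes and platelets, was higher in marrow by 3.80 ± 0.09, and the chemokines Ccl9 by 2.38 ± 0.10 and Ccl6 by 2.22 ± 0.12. The 4 h spleens gave smaller differences, 1.33 for F13a1, 1.06 for Ccl9 and 1.50 for Ccl6, all still called. Ccr2, the receptor by which monocytes leave marrow, averaged 10.93 ± 0.26 in marrow and 9.58 ± 0.17 in spleen (SD, n = 5 each), a difference of 1.35 ± 0.12, and its other probe sets gave 0.11 to 2.50. It was not called against the 4 h spleens, at 0.61. Vcan, a proteoglycan, was higher by 2.34 ± 0.19 against 7 d spleens and 0.24 against 4 h spleens, and its other probe sets gave -0.083 to 2.20. Csf1r, the receptor of macrophage growth factor, was higher in spleen at -1.38 ± 0.06. Set against the 4 h spleens, 3 monocyte genes were higher in marrow.

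Along the B cell lineage the precursor genes and the mature genes lay on opposite sides. B cells assemble their receptor in marrow with the recombinase Rag1 and Rag2 and a surrogate light chain, then move to the spleen. Of 19 precursor genes, 13 were higher in marrow and 2 in spleen (median 1.46). Rag1 had 9.87, 10.03, 10.52, 10.22 and 9.84 in the 5 marrow arrays, against 3.97, 3.78, 3.94, 3.90 and 4.02 in the 5 spleen arrays. The spleen values lay under the lower quartile, and the difference was 6.17 ± 0.11 (adjusted p = 5.96e-14). Vpreb1, one chain of the surrogate light chain, had 10.17, 10.89, 10.35, 10.35 and 10.50 in the 5 marrow arrays, against 5.05, 4.95, 4.88, 4.90 and 4.85 in the 5 spleen arrays. It was higher in marrow by 5.52 ± 0.11. Igll1, the other chain, was higher by 3.35 ± 0.11 while its second probe set gave 0.0023. Dntt, which adds bases at the joints of receptor genes, averaged 9.66 ± 0.22 in marrow and 6.39 ± 0.08 in spleen (SD, n = 5 each), a difference of 3.28 ± 0.09, and Rag2 was higher by 2.59 ± 0.07. Arpp21 was higher by 2.80 ± 0.10, with 0.29 to 1.07 on its other probe sets. Spleen held the higher level of Blnk, an adaptor of B cell receptor signalling (-1.18 ± 0.07, and -0.91 with each array centred on its median), and of Lef1, a factor also made by T cells (-1.59 ± 0.07). Against the 4 h spleens 13 of 19 were higher in marrow, with a median of 1.86.

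Mature B cell genes gave 0 of 24 higher in marrow and 18 in spleen, with a median of -1.68. Cr2, the complement receptor CD21 of mature B cells and follicular dendritic cells, had 6.79, 6.78, 6.54, 6.81 and 6.58 in the 5 marrow arrays, against 12.09, 11.80, 11.92, 11.92 and 12.06 in the 5 spleen arrays. This was the largest difference of the list, -5.25 ± 0.07 (adjusted p = 5.87e-15). Fcer2a, the low-affinity IgE receptor CD23 of follicular B cells, averaged 7.67 ± 0.20 in marrow and 10.87 ± 0.19 in spleen (SD, n = 5 each), a difference of -3.20 ± 0.10. Cxcr5, which guides B cells to follicles, differed by -2.97 ± 0.08 and Ms4a1, which encodes CD20, by -2.54 ± 0.09. With the 4 h spleens 16 members were higher in spleen (median -1.24).

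Marginal zone B cells stay in the spleen and answer blood-borne antigens. Of 16 genes of their list, 11 were higher in spleen and 1 in marrow (median -1.57). Dtx1, a target of Notch2 signalling, averaged 7.78 ± 0.05 in marrow and 11.47 ± 0.12 in spleen (SD, n = 5 each), a difference of -3.69 ± 0.06, but its second probe set gave -0.49. Hes1, another Notch target, differed by -1.76 ± 0.07, Asb2 by -2.09 ± 0.08 and S1pr3, a sphingosine phosphate receptor, by -1.84 ± 0.05. Cd9, a tetraspanin also abundant on platelets and stem cells, was the member higher in marrow, at 1.09 ± 0.07. Of 15 plasma cell and immunoglobulin genes 9 were higher in spleen and 0 in marrow, with a median of -1.09. Jchain, which joins IgM and IgA units, averaged 11.44 ± 0.26 in marrow and 14.03 ± 0.06 in spleen (SD, n = 5 each), a difference of -2.60 ± 0.10. Ighg3 differed by -3.92 ± 0.58 and Iglv1 by -2.61 ± 0.16. Mzb1, a chaperone of antibody-secreting and marginal zone B cells, differed by -1.71 ± 0.09, Prdm1, the factor that drives plasma cell formation, by -1.74 ± 0.10 and Tnfrsf17, a survival receptor of plasma cells, by -1.42 ± 0.06, or -0.80 and no call against 4 h spleens. Immunoglobulin probe sets can share sequence between genes, so single immunoglobulin values are uncertain. With the 4 h spleens 6 members were higher in spleen (median -0.67).

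Genes of antigen presentation by MHC class II had the lowest median of all lists, -2.54. Of 12 members 11 were higher in spleen and 0 in marrow. Ciita, the master activator of these genes, had 7.01, 6.84, 7.12, 7.16 and 7.31 in the 5 marrow arrays, against 9.83, 9.94, 9.90, 10.05 and 10.07 in the 5 spleen arrays. All 5 spleen arrays lay above all 5 marrow arrays, with a difference of -2.87 ± 0.08 (adjusted p = 2.62e-12). H2-DMb2, a chain of the peptide-loading protein H2-M, differed by -3.15 ± 0.04, H2-Ob by -2.67 ± 0.07, and the class II chains H2-Eb1 by -2.69 ± 0.06 and H2-Ab1 by -2.62 ± 0.05. Cd83, which stabilises class II at the surface, differed by -2.88 ± 0.06. The letters CCAAT occurred, on either strand, in 6 of the 8 members with a RefSeq promoter (75.0%), against 37.9% of all promoters.

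**Figure D3:**
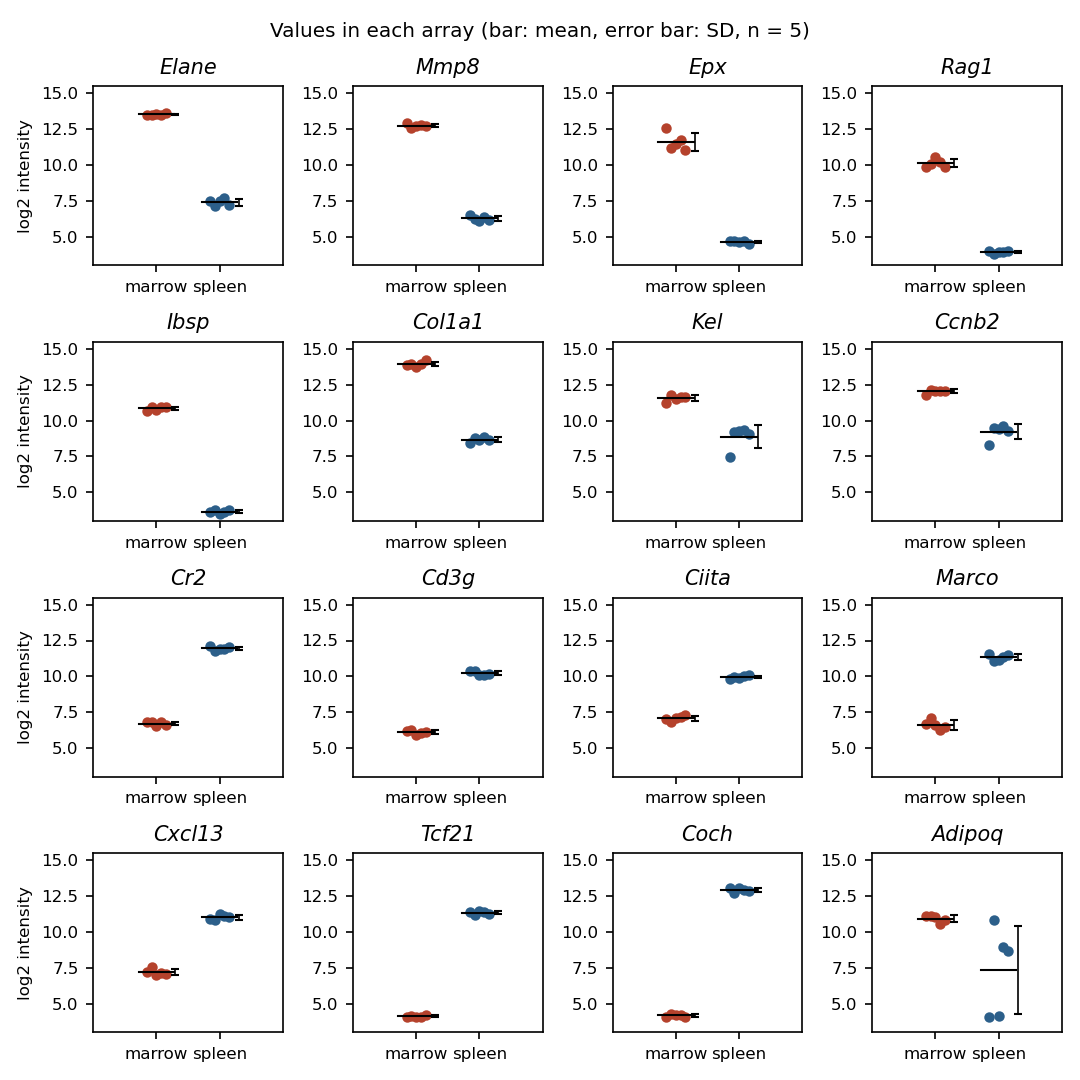
Log2 intensity of 16 genes in each of 5 marrow and 5 spleen arrays (points), with the mean as a line and the SD as an error bar. Spleen replicate 1, the leftmost spleen point, lies under the other spleens for Kel and Ccnb2, and the spleen values of Adipoq are spread between 4.05 and 10.84.

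T cell genes were higher in spleen for 27 of 29 members and in marrow for 0, with a median of -2.37. Cd3g, a chain of the T cell receptor complex, had 6.17, 6.25, 5.91, 6.06 and 6.15 in the 5 marrow arrays, against 10.36, 10.39, 10.13, 10.12 and 10.18 in the 5 spleen arrays. Its difference was -4.13 ± 0.08, a 17.5-fold higher level in spleen (adjusted p = 6.47e-14). Cd3e, another chain of that complex, averaged 7.71 ± 0.06 in marrow and 10.37 ± 0.14 in spleen (SD, n = 5 each), a difference of -2.66 ± 0.06. The costimulatory receptor Cd28 differed by -3.97 ± 0.08, the surface protein Cd5 by -2.98 ± 0.14, and Bcl11b, the factor that fixes T cell identity, by -3.13 ± 0.09. Gimap4 and Ms4a4b, both of T lymphocytes, differed by -2.83 ± 0.07 and -3.10 ± 0.08. With the 4 h spleens 25 members were higher in spleen (median -2.19).

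Natural killer cell genes gave 9 of 15 higher in spleen and 0 in marrow (median -1.07). Klra8, the activating receptor Ly49H, averaged 4.99 ± 0.42 in marrow and 7.47 ± 0.40 in spleen (SD, n = 5 each), a difference of -2.48 ± 0.21. The factors Tbx21 and Eomes differed by -2.27 ± 0.10 and -1.76 ± 0.06, Gzma, a cytotoxic granule protease, by -2.22 ± 0.15, and Klrd1, the receptor chain CD94, by -1.94 ± 0.09. Ncr1, the receptor NKp46, a marker of these cells, differed by -0.42 ± 0.15 and was not called. It gave 0.20 ± 0.10 against the 4 h spleens, also without a call. The chemokine Ccl5, made by cytotoxic lymphocytes, was higher in spleen at -2.44 ± 0.11. Of the list, 6 members were higher in spleen when the 4 h spleens were used (median -0.61).

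Of 18 dendritic cell genes 7 were higher in spleen, 0 in marrow and 11 were not called (median -0.66). Cd8a, carried by cytotoxic T cells and by a dendritic subset, differed by -2.58 ± 0.06, but its 4 other probe sets gave -3.19 to 0.037. Batf3 and Xcr1, the factor and the receptor of cross-presenting dendritic cells, differed by -2.26 ± 0.06 and -2.06 ± 0.09, and Itgax, which encodes CD11c, by -2.16 ± 0.06. Ly6d, shared by B cells and plasmacytoid dendritic cells, differed by -1.67 ± 0.07, and Tcf4, the factor of plasmacytoid cells, by -1.33 ± 0.05, or -0.68 and no call against 4 h spleens.

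Macrophage genes did not move as 1 group. Among 29 genes of red pulp and other resident macrophages, 8 were higher in spleen, 1 in marrow and 20 were not called (median -0.44). Spic, the factor that red pulp macrophages need, had 8.82, 9.22, 9.0, 8.96 and 9.10 in the 5 marrow arrays, against 10.37, 10.01, 10.25, 10.03 and 10.12 in the 5 spleen arrays. It was higher in spleen, at -1.14 ± 0.08, and at -0.98, without a call, when each array was instead centred on its median. Timd4, which binds dying cells, differed by -1.93 ± 0.07, Mertk, a receptor for their uptake, by -1.44 ± 0.08, Treml4 by -1.27 ± 0.11 and Hpgd, which degrades prostaglandins, by -1.27 ± 0.08. Hpgd was not called against the 4 h spleens, at -0.76. Vsig4, a complement receptor of resident macrophages, was the member higher in marrow, 7.68 ± 0.23 in marrow and 5.52 ± 0.24 in spleen (SD, n = 5 each), a difference of 2.16 ± 0.12. Adgre1, which encodes the general marker F4/80, differed by -0.11 ± 0.07 and was not called, and it gave 0.31 against 4 h spleens. Genes of iron recovery and adhesion in these macrophages missed the 2-fold limit too. Hmox1, which breaks down haem, differed by -0.51 ± 0.13, Slc40a1, the iron exporter ferroportin, by -0.55 ± 0.06 and Vcam1 by -0.73 ± 0.07. Hmox1 gave 0.40 ± 0.45 against the 4 h spleens, whose arrays had 8.76, 11.33, 9.87 and 11.29, so its direction there is not settled. The sign of Adgre1 differed between the spleen sets, with each difference under the 2-fold limit. The second probe set of Slc40a1 gave 0.089.

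Marginal zone and metallophilic macrophages, which line the marginal zone, had 5 of 9 genes higher in spleen and 0 in marrow (median -1.14). Marco, a scavenger receptor for bacteria, had 6.67, 7.09, 6.59, 6.22 and 6.44 in the 5 marrow arrays, against 11.59, 11.06, 11.17, 11.34 and 11.47 in the 5 spleen arrays. The difference was -4.72 ± 0.14 (adjusted p = 5.2e-12). Cd209b, the lectin SIGN-R1 of the same cells, averaged 5.86 ± 0.08 in marrow and 8.45 ± 0.22 in spleen (SD, n = 5 each), a difference of -2.59 ± 0.09. Nr1h3, the nuclear receptor LXR alpha that these macrophages need, differed by -1.14 ± 0.09 and Cd36, a scavenger receptor also made by fat and endothelial cells, by -1.19 ± 0.07, or -0.92 with each array centred on its median.

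Red cell genes were higher in marrow for 40 of 48 members, with 1 higher in spleen and a median of 1.92. The mean of the list was 11.30, 11.68, 11.49, 11.57 and 11.58 in the 5 marrow arrays, against 8.80, 9.95, 9.97, 10.10 and 9.84 in the 5 spleen arrays. Spleen replicate 1 lay more than 1 log2 unit under each other spleen array, and the tissues did not overlap. Without it 37 genes were higher in marrow (median 1.70). Icam4, a red cell adhesion protein, had 10.07, 10.70, 10.28, 10.36 and 10.44 in the 5 marrow arrays, against 6.06, 7.57, 7.75, 7.89 and 7.38 in the 5 spleen arrays. Its difference was 3.04 ± 0.28, and 2.74 without spleen replicate 1. Kel, the Kell blood group protease, had 11.20, 11.81, 11.52, 11.67 and 11.68 in the 5 marrow arrays, against 7.45, 9.21, 9.27, 9.32 and 9.09 in the 5 spleen arrays, a difference of 2.71 ± 0.30, and 2.37 without spleen replicate 1. Cldn13, a claudin of mouse red cell precursors, was higher by 2.90 ± 0.33, Epb42, a protein of the red cell skeleton, by 2.85 ± 0.38, Sox6, a factor of red cell maturation, by 2.72 ± 0.37, and Nfe2, a factor of red cells and platelets, by 2.84 ± 0.21. With spleen replicate 1 left out these differences were 2.53, 2.39, 2.28 and 2.59 in the same order. Bcl11a, which represses fetal globin and is also made by B cells, was the member higher in spleen, at -1.08 ± 0.06, with -1.08 to 0.016 on its other probe sets and -0.88 when each array was centred on its median. Bcl11a, set against the 4 h spleens, gave -0.49 and no call.

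The comparison with the other vehicle spleens gave a different picture for these genes. Against the 4 h spleens 6 of 48 red cell genes were higher in marrow and 0 in spleen, with a median of 0.48. Kel had 10.74, 10.24, 11.65 and 10.30 in the 4 spleen arrays at 4 h and a difference of 0.72, so it was no longer called. Cldn13 gave 0.78, Epb42 0.77 and Sox6 0.39, none of them called. Icam4 and Nfe2 were still called, with smaller differences of 1.29 and 1.46. The mean of the list was 11.18 to 11.56 in the marrow arrays, against 10.93, 10.46, 11.41 and 10.54 in 4 h spleen arrays 1 to 4, so array 3 lay within the marrow arrays and the other 3 below them. Without array 3, 15 red cell genes were higher in marrow, with a median of 0.68, and Kel and Cldn13 were called again, at 1.03 and 1.09. The 4 h arrays are another set of the deposited table, and what moves these values was not tested.

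Icam4 is shown as the red cell gene with the largest difference. The sequence is from RefSeq, GRCm38.p6, plus strand, chr9:21029182-21029481, and capitals mark AGATAA, read here on the opposite strand, the core bound by GATA1.
Icam4: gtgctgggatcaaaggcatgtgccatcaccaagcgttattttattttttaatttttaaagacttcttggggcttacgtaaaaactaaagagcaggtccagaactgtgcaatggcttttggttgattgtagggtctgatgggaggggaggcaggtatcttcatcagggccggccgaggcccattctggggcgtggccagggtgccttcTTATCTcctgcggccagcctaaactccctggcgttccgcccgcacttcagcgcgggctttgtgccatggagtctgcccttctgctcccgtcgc
The match begins 43 bases before the annotated start. AGATAA occurred, on either strand, in 10 of the 37 red cell genes with a promoter in the table (27.0%), against 11.4% of all promoters.

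Of 12 genes of haem synthesis, a pathway most active in red cell precursors, 10 were higher in marrow and 0 in spleen, with a median of 1.53. Alad, Urod, Uros, Cpox, Ppox, Fech and Slc25a38 are members of the red cell list too, so the counts of these lists overlap. The enzymes of the pathway Alad, Urod, Uros, Cpox and Ppox differed by 1.97, 1.91, 1.62, 1.61 and 1.58, and Abcb10, a mitochondrial transporter, by 1.97. Alas2, the first and rate-limiting enzyme in red cells, had 13.46, 13.93, 13.71, 13.80 and 13.87 in the 5 marrow arrays, against 12.26, 13.20, 13.21, 13.09 and 13.24 in the 5 spleen arrays. Its difference of 0.75 ± 0.17 stayed under the 2-fold limit. Without spleen replicate 1, 10 of the 12 were higher in marrow (median 1.42). Alas2 then differed by 0.56, Alad by 1.75 and Abcb10 by 1.82. In the comparison with 4 h spleens 1 of 12 was higher in marrow (median 0.44), with 0.75 for Alad, 0.33 for Urod, 0.41 for Uros, 0.50 for Cpox, 0.45 for Ppox and 0.42 for Abcb10, none of them called.

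Of 29 iron genes 10 were higher in marrow and 2 in spleen, with a median of 0.28. Over all genes 7.52% were higher in marrow and 6.66% in spleen, so the spleen count lay near that share. Ltf and Lcn2, given above, and Hp, haptoglobin, which binds free haemoglobin and is stored in neutrophil granules, led the list. Hp averaged 13.22 ± 0.07 in marrow and 8.64 ± 0.45 in spleen (SD, n = 5 each), a difference of 4.59 ± 0.17. Tfrc, the transferrin receptor, had 12.84, 13.09, 12.98, 13.10 and 13.03 in the 5 marrow arrays, against 10.31, 11.32, 11.58, 11.76 and 11.28 in the 5 spleen arrays. It was higher in marrow by 1.76 ± 0.21 against 7 d spleens, or 1.52 without spleen replicate 1, while the 4 h spleens gave 0.28 and no call. Tfr2 was higher by 1.54 ± 0.13 and Steap4, a metalloreductase, by 2.46 ± 0.15, with 0.85 for Tfr2 and 0.51 for Steap4 against 4 h spleens. Hfe, a regulator of iron uptake, was higher in spleen at -1.28 ± 0.06, and fell just short of the limit against 4 h spleens, at -0.996. Without spleen replicate 1, 8 iron genes were higher in marrow and 2 in spleen. Set against the 4 h spleens, 3 iron genes were higher in marrow and 2 in spleen, or 6 and 2 without array 3. Over all 18193 genes these counts were 895 and 954, or 1091 and 1080 without array 3.

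**Figure D4:**
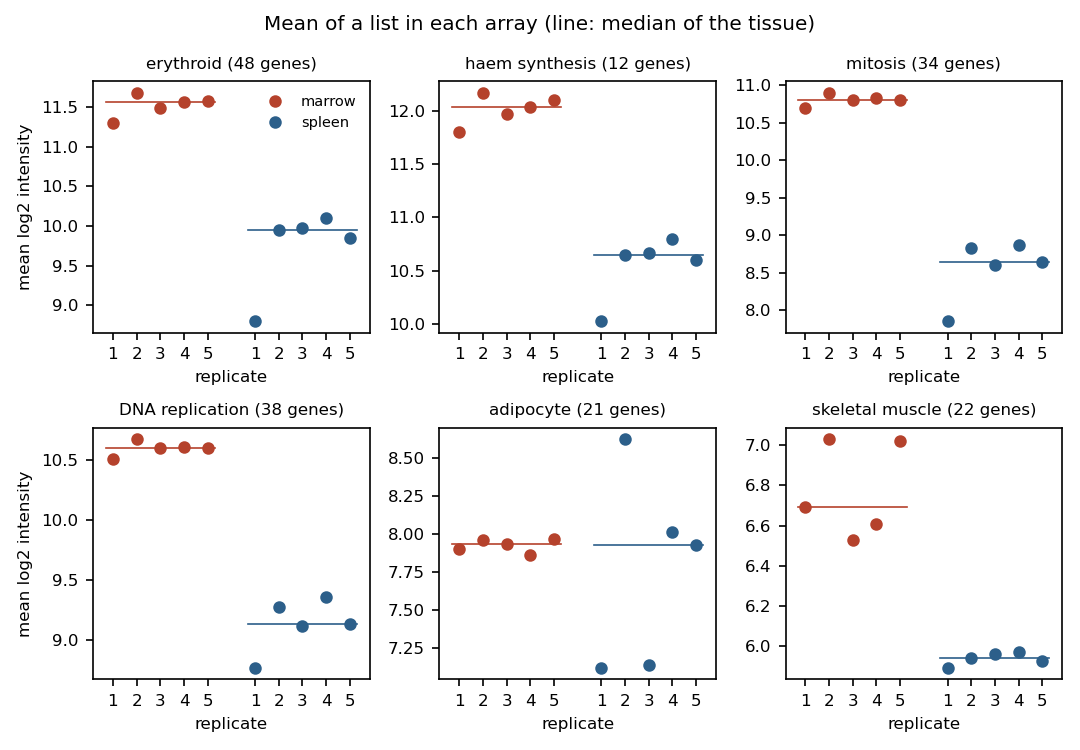
Mean log2 intensity of 6 gene lists in each array, by replicate number, with the median of the tissue as a line (5 marrow and 5 spleen arrays). Spleen replicate 1 has the lowest mean of its tissue for red cell, haem synthesis, mitosis, DNA replication and fat cell genes, and muscle genes are higher in each marrow array than in any spleen array.

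All 34 measured mitosis genes were higher in marrow, with a median of 2.29. The mean of the list was 10.69, 10.90, 10.81, 10.84 and 10.80 in the 5 marrow arrays, against 7.86, 8.83, 8.61, 8.87 and 8.65 in the 5 spleen arrays. The marrow arrays lay within a narrow band, and spleen replicate 1 was again the lowest. Ccnb2, cyclin B2, which drives entry into mitosis, had 11.80, 12.16, 12.05, 12.09 and 12.07 in the 5 marrow arrays, against 8.29, 9.48, 9.42, 9.65 and 9.29 in the 5 spleen arrays. Its difference was 2.81 ± 0.20 (adjusted p = 2.69e-08), and 2.59 without spleen replicate 1. Mki67, the proliferation marker, averaged 13.47 ± 0.09 in marrow and 11.55 ± 0.63 in spleen (SD, n = 5 each), a difference of 1.92 ± 0.23, and 1.63 without spleen replicate 1. The kinases Bub1 and Ttk of the spindle checkpoint were higher by 2.57 ± 0.14 and 2.61 ± 0.15, the spindle motor Kif11 by 2.59 ± 0.16, and Anln and Ect2, which act in cell cleavage, by 2.65 ± 0.19 and 2.54 ± 0.17. Of 38 DNA replication genes 33 were higher in marrow and 0 in spleen (median 1.45). Cdc6, which loads the replicative helicase, was higher by 2.57 ± 0.19, Rfc4, of the clamp loader, by 2.09 ± 0.10, Rrm2, which makes deoxynucleotides, by 2.02 ± 0.24, Tk1, thymidine kinase, by 1.97 ± 0.09 and Gins1 by 2.01 ± 0.10. Of 8 histone genes 3 were higher in marrow, with H2ax at 1.97 ± 0.11.

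Against the 4 h spleens 19 of 34 mitosis genes were higher in marrow (median 1.06) and 10 of 38 replication genes (median 0.84). Mki67 gave 0.58 there, Rrm2 0.80 and Tk1 0.96, all without a call. Without array 3 of the 4 h spleens, 30 mitosis and 23 replication genes were higher in marrow, with medians of 1.39 and 1.06, and Rrm2 and Tk1 were called again, at 1.02 and 1.17. With spleen replicate 1 left out, 34 mitosis and 32 replication genes were higher, with medians of 2.11 and 1.38, and Bub1 differed by 2.43. Cdc6 then differed by 2.36, Rrm2 by 1.72 and Tk1 by 1.90.

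**Figure D5:**
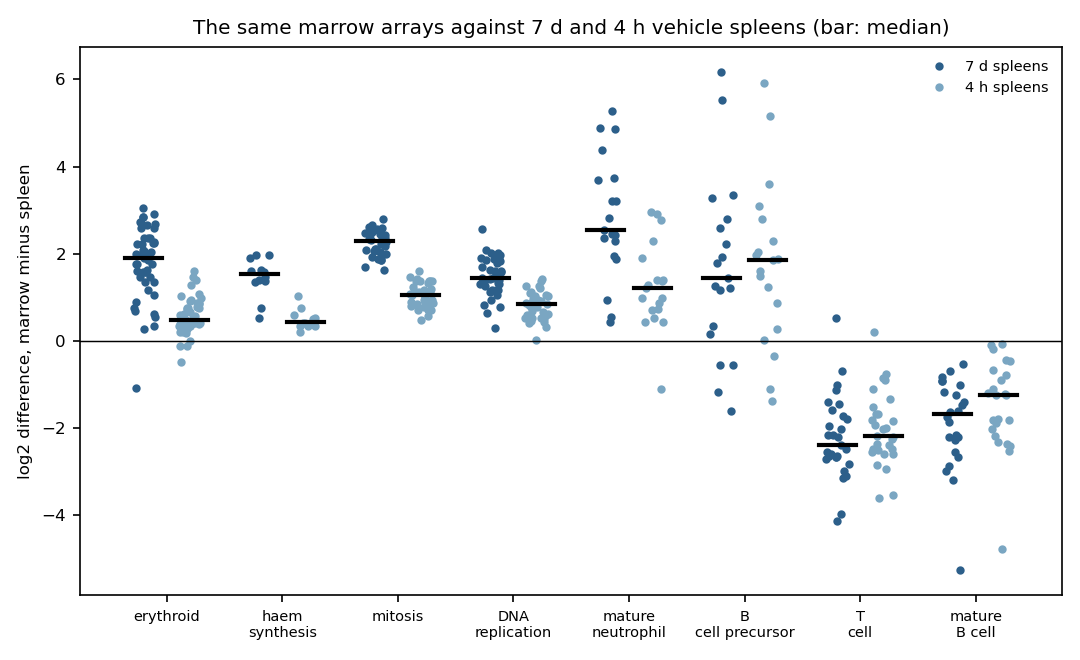
Log2 difference of each member of 8 gene lists for the same 5 marrow arrays against the 5 spleens at 7 d (dark) and against the 4 spleens at 4 h (light), with medians as bars. Red cell genes have a median of 1.92 against 7 d and 0.48 against 4 h spleens, and T cell genes -2.37 and -2.19.

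Ccnb2 is shown as the mitosis gene with the largest difference. Its promoter is from RefSeq, GRCm38.p6, minus strand, chr9:70421505-70421804, and capitals mark CCAAT, bound by NF-Y, and TTTGAA, the CHR element of genes expressed in mitosis.
Ccnb2: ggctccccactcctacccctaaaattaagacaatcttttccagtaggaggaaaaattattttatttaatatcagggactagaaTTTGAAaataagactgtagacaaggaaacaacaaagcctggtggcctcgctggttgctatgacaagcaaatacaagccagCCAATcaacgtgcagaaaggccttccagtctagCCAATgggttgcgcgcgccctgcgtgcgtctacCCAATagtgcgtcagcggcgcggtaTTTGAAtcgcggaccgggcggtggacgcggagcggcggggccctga
CCAAT occurred, on either strand, in 26 of 30 mitosis genes with a promoter in the table (86.7%), against 37.9% of all promoters, and TTTGAA in 25 of 30 (83.3%), against 18.1%.

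Of 26 megakaryocyte and platelet genes 20 were higher in marrow and 1 in spleen, with a median of 1.60. Zfpm1, the GATA1 partner FOG1, averaged 11.03 ± 0.16 in marrow and 8.78 ± 0.34 in spleen (SD, n = 5 each), a difference of 2.25 ± 0.14. Gp5 and Gp1bb, chains of the von Willebrand factor receptor, were higher by 2.02 ± 0.10 and 2.04 ± 0.11, although the second Gp1bb probe set gave 0.36. Pf4 and Ppbp, chemokines of platelet granules, were higher by 1.73 ± 0.09 and 1.51 ± 0.10. Rab27b, which acts in granule release, was higher by 2.10 ± 0.07. Clu, clusterin, also made by many stromal cells, was the member higher in spleen, at -2.35 ± 0.05. The 4 h spleens gave 19 higher in marrow and a median of 1.42.

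Stem and progenitor genes were divided and had a median of 0.095, close to that of all genes. Of 28 members 8 were higher in marrow, 4 in spleen and 16 were not called. The median was -0.18 without the common distribution, so its direction is not settled. Kit, the stem cell factor receptor, had 9.58, 9.50, 9.48, 9.45 and 9.48 in the 5 marrow arrays, against 9.23, 9.08, 9.10, 9.27 and 9.06 in the 5 spleen arrays. Its difference was 0.35 ± 0.05, and Cd34 differed by 0.013 ± 0.12, neither called. Myb, which early blood precursors need, was higher in marrow by 2.23 ± 0.10, Tal1 by 2.01 ± 0.26, Sox4 by 1.46 ± 0.09, Adgrg1 by 1.48 ± 0.07 and Cdk6 by 1.23 ± 0.04. Tal1 gave 0.36 against 4 h spleens. Procr, the endothelial protein C receptor, and Fgd5 were higher in spleen at -3.37 ± 0.07 and -2.90 ± 0.08. Both are carried by stem cells and by endothelium. Of 33 Hox genes 1 was called, Hoxa10, higher in marrow by 1.73 ± 0.05 with 0.18 on its second probe set.

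Of 33 genes of osteoblasts, osteocytes and other bone cells 16 were higher in marrow, 1 in spleen and 16 were not called (median 1.21). Ibsp, bone sialoprotein of osteoblasts, had 10.66, 10.93, 10.77, 10.93 and 10.96 in the 5 marrow arrays, against 3.62, 3.74, 3.47, 3.60 and 3.74 in the 5 spleen arrays. This was the largest difference in marrow of any named gene, 7.22 ± 0.07, with 4.55 on its second probe set, and the spleen values lay under the lower quartile. Col1a1, the main collagen of bone, had 13.87, 13.95, 13.76, 13.92 and 14.21 in the 5 marrow arrays, against 8.42, 8.77, 8.63, 8.88 and 8.67 in the 5 spleen arrays, a difference of 5.27 ± 0.09 (adjusted p = 4.9e-14). Dmp1 and Phex, both of osteocytes, were higher by 4.28 ± 0.10 and 4.19 ± 0.11, though the second Phex probe set gave 0.11. Mmp13, collagenase 3 of osteoblasts and cartilage, was higher by 4.53 ± 0.12, and Col11a1, a fibrillar collagen, by 6.37 ± 0.12. Postn, periostin, was the member higher in spleen, at -1.42 ± 0.09. The 4 h spleens gave 17 bone genes higher in marrow. Without spleen replicate 1 the list median was 0.99. Promoter letters AACCACA, the RUNX2 core, occurred in 1 of 22 members with a promoter in the table (4.55%), against 5.37% of all promoters.

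The marrow niche list covered stromal cells that support blood formation. Of its 27 genes 9 were higher in marrow and 5 in spleen, with a median of 0.34. Ebf3, a factor of these stromal cells, averaged 8.36 ± 0.10 in marrow and 5.36 ± 0.17 in spleen (SD, n = 5 each), a difference of 3.00 ± 0.08, with 2.61 to 2.79 on other probe sets. Foxc1, another factor of the niche, was higher by 2.49 ± 0.07, Shox2 by 2.79 ± 0.07 and the adhesion protein Cdh2 by 2.14 ± 0.10. Cxcl12, the chemokine that holds stem cells, had 12.20, 12.15, 12.21, 12.18 and 12.35 in the 5 marrow arrays, against 12.73, 12.48, 12.76, 12.58 and 12.48 in the 5 spleen arrays. Its difference was -0.39 ± 0.07 and not called, while its 2 other probe sets gave 0.75 to 1.06, so the direction depends on the probe set. It gave 0.20 against 4 h spleens. Pdgfrb and Pdgfra, receptors of stromal cells, were higher in spleen at -1.63 ± 0.08 and -1.35 ± 0.06, the growth factor Csf1 at -2.06 ± 0.08 and Sparcl1 at -3.31 ± 0.11.

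Genes of the spleen stroma included the largest difference of any named gene. Of 26 members 11 were higher in spleen, 2 in marrow and 13 were not called, and the median was -0.24. Coch, cochlin, which follicular dendritic cells secrete, had 4.10, 4.32, 4.24, 4.24 and 4.11 in the 5 marrow arrays, against 13.09, 12.75, 13.09, 12.96 and 12.88 in the 5 spleen arrays. The tissues differed by -8.76 ± 0.07 (adjusted p = 4.39e-17). Tcf21, a factor without which mice form no spleen, had 4.08, 4.13, 4.09, 4.08 and 4.25 in the 5 marrow arrays, against 11.40, 11.18, 11.45, 11.43 and 11.29 in the 5 spleen arrays. Its difference was -7.22 ± 0.06, but its second probe set gave -0.26. Tlx1, which the spleen also needs to form, averaged 5.82 ± 0.13 in marrow and 8.49 ± 0.14 in spleen (SD, n = 5 each), a difference of -2.67 ± 0.08, and Nkx2-3 differed by -2.41 ± 0.05 with -0.20 to -0.086 on its other probe sets. The nuclear receptor Nr2f2 differed by -2.94 ± 0.09 and the cytokine Il33 by -4.20 ± 0.08. Madcam1, the addressin of cells that line the marginal sinus, averaged 5.20 ± 0.15 in marrow and 8.56 ± 0.13 in spleen (SD, n = 5 each), a difference of -3.36 ± 0.08. Cxcl13, which draws B cells into follicles, had 7.22, 7.56, 7.04, 7.18 and 7.08 in the 5 marrow arrays, against 10.92, 10.82, 11.29, 11.09 and 11.05 in the 5 spleen arrays. The difference was -3.81 ± 0.10, with -8.18 on its second probe set. Enpep, an aminopeptidase, and Tnfsf13b, the B cell survival factor BAFF, were the members higher in marrow, by 1.71 ± 0.14 and 1.30 ± 0.07, with 0.28 to 1.15 on other probe sets of Tnfsf13b and 0.80, without a call, against 4 h spleens.

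Smooth muscle and capsule genes gave 11 of 23 higher in spleen and 0 in marrow (median -0.87). Tagln, transgelin of smooth muscle, had 6.89, 6.65, 6.71, 6.34 and 6.66 in the 5 marrow arrays, against 10.47, 10.79, 11.02, 10.92 and 10.83 in the 5 spleen arrays, a difference of -4.16 ± 0.11. Myh11, smooth muscle myosin, differed by -3.75 ± 0.13, although its second probe set gave 1.00. Dpt, dermatopontin, differed by -4.04 ± 0.17, Actg2, an actin of smooth muscle, by -2.17 ± 0.07, Synpo2 by -4.29 ± 0.09 and Wt1, a factor of the mesothelium, by -2.81 ± 0.07. For Synpo2 the other probe sets gave -0.71 to -0.46.

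Collagens and other matrix genes split by organ. Of 42 members 8 were higher in marrow and 16 in spleen (median -0.60). Besides Col1a1 and Col11a1, marrow held more Lum, lumican (4.73 ± 0.21), Tnc, tenascin C (4.00 ± 0.08), Col5a2 (2.63 ± 0.12) and Col1a2 (2.68 ± 0.06, -0.24 to 4.35 on other probe sets). Spleen held more Igfbp3 (-4.19 ± 0.09), Efemp1, fibulin 3 (-4.11 ± 0.45), Sfrp1, an inhibitor of Wnt signalling (-2.93 ± 0.07), Nid1, a basement membrane protein (-2.75 ± 0.06), and Col14a1 (-2.42 ± 0.08). The 4 h spleens gave 9 higher in marrow, 15 in spleen and a median of -0.28.

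Endothelial genes were higher in spleen for 20 of 39 members and in marrow for 3, with a median of -1.01. Set against the 4 h spleens, 14 were higher in spleen and 3 in marrow, and the median of -0.61 was under the 2-fold limit. Cav1, of caveolae, averaged 7.38 ± 0.08 in marrow and 10.29 ± 0.33 in spleen (SD, n = 5 each), a difference of -2.91 ± 0.13. Plvap, of fenestrated vessels, differed by -2.65 ± 0.05, Ptprb by -2.27 ± 0.07, and Stab2, a scavenger receptor of sinus endothelium, by -2.23 ± 0.09. Marrow held more Ackr1, the Duffy chemokine receptor (2.36 ± 0.12), Emcn, endomucin (1.95 ± 0.08), and Vwf, von Willebrand factor, which megakaryocytes make as well (1.50 ± 0.09). Ackr1 had its lowest spleen value in replicate 1, as red cell genes did, and differed by 2.26 without that array. It fell just short of the limit against 4 h spleens, at 1.00, and which cells carry it here was not tested.

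Chemokine and lymphotoxin genes fell on both sides, 7 of 26 higher in marrow and 6 in spleen (median -0.11, and 0.013 against 4 h spleens or -0.0038 without their array 3). Cxcl14 and Tnfsf14 were higher in marrow by 3.07 ± 0.07 and 2.36 ± 0.08. The interferon-induced Cxcl9 and Cxcl10 were higher in spleen at -2.01 ± 0.10 and -2.39 ± 0.13, and Lta and Ltb, which organise lymphoid tissue, at -2.08 ± 0.10 and -1.86 ± 0.06. Of 19 receptor genes 4 were higher in marrow and 9 in spleen (median -0.94). Ackr3, a scavenging receptor of Cxcl12, averaged 4.45 ± 0.11 in marrow and 9.69 ± 0.17 in spleen (SD, n = 5 each), a difference of -5.24 ± 0.08. Ccr6, of B cells and some dendritic and T cells, differed by -3.08 ± 0.07, Ccr7, which guides T cells to their zones, by -2.02 ± 0.06, and Cxcr6 by -2.10 ± 0.10. Cxcr4, the receptor of Cxcl12, was higher in marrow by 1.27 ± 0.22, and the myeloid receptors Ccr1 and Cxcr2 by 2.62 ± 0.08 and 2.37 ± 0.07. Cxcr2 gave 0.43 against 4 h spleens and was not called.

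Complement genes gave 4 of 20 higher in marrow and 8 in spleen (median -0.58). The receptors and adhesion chain of phagocytes Itgam, C5ar1 and C3ar1 were higher in marrow by 3.96 ± 0.10, 3.19 ± 0.16 and 1.17 ± 0.07, the last with 0.30 to 1.37 on other probe sets and 0.88, without a call, on the deposited scale, and 0.92, again without a call, against 4 h spleens. The components C1s1, Cfb and C6 were higher in spleen at -2.93 ± 0.06, -2.52 ± 0.05 and -1.71 ± 0.10, as was the regulator Cd55 at -1.86 ± 0.06.

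None of 31 ribosomal protein genes was called (median -0.12). Of 26 interferon-stimulated genes 6 were higher in spleen and 1 in marrow (median -0.089). Gbp2 and Gbp3, guanylate-binding proteins, were higher in spleen at -1.90 ± 0.09 and -1.88 ± 0.10, and Oas3 was higher in marrow by 1.59 ± 0.15. Using the 4 h spleens, 8 were higher in spleen and 0 in marrow (median -0.59), and Oas3 was not called, at 0.28. Immediate early genes, which respond to stimulation and to handling of tissue, were higher in spleen for 7 of 20 and in marrow for 1. Egr3 differed by -3.74 ± 0.11, with 0.23 on its second probe set, Egr2 by -1.91 ± 0.08 and Nr4a1 by -1.52 ± 0.08. Fos averaged 7.85 ± 0.19 in marrow and 6.73 ± 0.15 in spleen (SD, n = 5 each) and was higher in marrow by 1.12 ± 0.09, but had -0.018 against 4 h spleens and 0.79 without the common distribution, both without a call. Heat shock genes had 2 of 11 higher in spleen, Hspb1 at -1.75 ± 0.10 and Hspa1b at -1.70 ± 0.28, or -0.90 and no call against 4 h spleens.

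Markers of tissues that a dissection could bring along were read in the same way. Of 22 skeletal muscle genes 11 were higher in marrow and 2 in spleen (median 1.02), and their summed linear intensity was 2734 to 4086 in marrow and 2252 to 2403 in spleen. Myh1, a fast muscle myosin, had 6.65, 8.06, 6.27, 6.90 and 7.86 in the 5 marrow arrays, against 3.77, 4.00, 3.95, 4.06 and 4.05 in the 5 spleen arrays. Acta1, skeletal actin, had 9.23, 9.35, 8.59, 8.90 and 9.58 in the 5 marrow arrays, against 6.68, 7.06, 6.85, 7.04 and 6.95 in the 5 spleen arrays. Each marrow array lay above each spleen array for both genes. Des and Ttn, the members higher in spleen, differed by -1.15 ± 0.05 and -1.91 ± 0.22, and each had another probe set of the opposite sign. Des was not called against the 4 h spleens, at -0.81. Fat cell genes summed to 13780 to 15570 in marrow and 11160 to 32920 in spleen, with 2 of 21 higher in marrow and 3 in spleen. Adipoq, adiponectin of fat cells, had 11.10, 11.11, 11.04, 10.56 and 10.84 in the 5 marrow arrays, against 4.05, 10.84, 4.15, 8.97 and 8.65 in the 5 spleen arrays. The tissues overlapped although the gene was called at 3.60 ± 1.09 (adjusted p = 0.00887), since spleen replicate 2 was near the marrow arrays, and replicates 1 and 3 were under the lower quartile. The 4 h spleens had 3.72, 3.99, 4.03 and 6.14 for Adipoq, and the difference against them was 6.34. Scd1, a fatty acid desaturase, was higher in spleen at -2.64 ± 0.16. None of 17 pancreatic genes was called (summed intensity 2084 to 2337 in marrow and 1436 to 1581 in spleen), and of 16 liver genes 3 were higher in spleen and 0 in marrow (845 to 1302 in marrow and 889 to 2037 in spleen). Cyp2e1, a cytochrome of liver and fat, had 5.59, 6.19, 5.48, 5.33 and 5.57 in the 5 marrow arrays, against 5.96, 10.23, 6.25, 9.11 and 8.79 in the 5 spleen arrays, so the tissues overlapped, and its difference of -2.44 ± 0.67 became -0.54, without a call, against 4 h spleens. No array value is exactly 0 in this table, and the part of muscle or fat in the bone, matrix and stromal results was not tested.

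For the remaining lists the 4 h spleens gave these numbers of genes higher in marrow and in spleen. Over all 18193 genes the numbers were 895 and 954. The counts were 4 and 1 (median 0.70) for granulocyte factors, 8 and 0 (median 2.81) for eosinophil, basophil and mast cell genes and 1 and 11 (median -1.33) for marginal zone B cell genes. They were 0 and 10 (median -2.18) for MHC class II presentation, 0 and 5 (median -0.52) for dendritic cell genes and 1 and 8 (median -0.23) for red pulp macrophage genes. Marginal zone macrophage genes gave 0 and 5 (median -1.05), and stem and progenitor genes 6 and 3 (median 0.21). Stromal lists gave 8 and 5 (median 0.48) for the marrow niche, 2 and 11 (median -0.061) for spleen stroma and 2 and 10 (median -0.75) for smooth muscle. Receptor genes gave 2 and 9 (median -0.81), complement genes 3 and 7 (median -0.47), and immediate early genes 0 and 5 (median -0.34). Fat cell genes gave 3 and 2 (median 0.36), muscle genes 12 and 2 (median 1.12), pancreatic genes 0 and 0 (median 0.10) and liver genes 0 and 3 (median 0.23). Histone genes gave 2 and 0 (median 0.52), Hox genes 2 and 0 (median 0.19), heat shock genes 0 and 1 (median -0.097) and ribosomal protein genes 0 and 0 (median -0.098). None of these medians differs in sign from that against 7 d spleens, but other settings changed the sign of some. Without the common distribution Hox genes had -0.059, fat cell genes -0.25 and liver genes -0.043, besides the stem and progenitor genes given above. Heat shock genes had 0.23 with each array centred on its median and 0.0032 without marrow replicate 4. Without spleen replicate 3 fat cell genes had -0.021 and heat shock genes 0.019.

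Several of the largest differences lay outside the lists. Olfm4, olfactomedin 4 of a subset of neutrophils, had 10.84, 11.15, 10.90, 10.77 and 10.85 in the 5 marrow arrays, against 4.33, 4.13, 4.44, 4.26 and 4.26 in the 5 spleen arrays. Its difference of 6.62 ± 0.07 was the largest in marrow among the named genes of no list. In spleen Smoc2, a matrix protein that binds calcium, had 5.62, 5.56, 5.59, 5.49 and 6.13 in the 5 marrow arrays, against 11.02, 11.04, 11.14, 11.17 and 11.01 in the 5 spleen arrays, a difference of -5.40 ± 0.10. Hs6st2, a sulphotransferase of heparan sulphate, averaged 4.34 ± 0.18 in marrow and 10.16 ± 0.23 in spleen (SD, n = 5 each), a difference of -5.82 ± 0.11 with -3.40 to -0.77 on its other probe sets. Hmcn1, hemicentin 1 of basement membranes, differed by -5.07 ± 0.06, Plekha6 by -4.95 ± 0.09, Efhd1 by -4.71 ± 0.06, Npnt, nephronectin of basement membranes, by -4.62 ± 0.10 and Cadm4, a cell adhesion protein, by -4.36 ± 0.05. The marrow means of Hs6st2, Hmcn1, Plekha6 and Efhd1 lay under the lower quartile, as did those of Coch, Tcf21, Il33, Ackr3, Efemp1, Synpo2, Myh11, Wt1 and Klra8. So did the spleen means of Olfm4, Col11a1, Vpreb1, Ceacam10, Padi4, Stfa2l1, Mmp13, Dmp1, Phex, Arpp21, Shox2, Foxc1, Myh1, Emcn and Hoxa10. For some genes given above by 1 probe set, at least 1 other probe set differed by less than 2-fold. These are Sox4, Cdk6, Gins1, Uros, Ppox, Lef1, Hfe, Hpgd, Cd36, Myh1, Tcf4, Pdgfra, Pdgfrb, Csf1, Eomes, S1pr3, Col14a1, Sfrp1, Ighg3 and Scd1.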

How the data were processed

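The authors deposited intensities per probe set for all arrays in 1 table, made with RMA per the submitters' processing notes. The RMA version, not given in the sources used here, stays unknown, and the scale is linear. The members and the gene lists were chosen with earlier results of these data known. The 10 arrays were taken as log2(value + 1) and quantile-normalized together, since the deposited medians differ by tissue; fold changes on this scale understate the change of low genes. Of 45101 probe sets, 64 controls were left out, 34945 had 1 gene symbol in the platform annotation, 932 had several and 9160 had none. Gene IDs of 34741 matched a current table, and 0 symbols changed. For each of 18193 genes the brightest probe set, by its mean in the 10 arrays, was used. limma 3.58.1 in R 4.3.3 (lmFit, eBayes) gave two-sided p-values, adjusted by Benjamini-Hochberg over all genes. No array pair was identical (0 pairs). Named genes are the largest differences in each direction among called genes whose arrays do not overlap and whose higher mean exceeds the median of all probe sets (6.64), up to a fixed number of called members for each list and direction, and a fixed set of classical markers, some of which were not analysed here. Of 42 lists, members without a single-gene probe set were left out. Some genes, such as Cr2, Marco and Alad, are members of more than 1 list, so the counts of different lists are not independent. Tests were tried on simulated data first. Promoters came from a RefSeq table of 27025 genes. The number of arrays limits the precision.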

Additional observations from a re-analysis of the deposited data

Results flagged for a closer look

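Of 486 groups of 5 arrays (243 named genes in 2 tissues), 52 held an array set apart from the nearest of the others by more than 0.71 of the whole range of its group, 24 in marrow and 28 in spleen. Chance sets apart about 1 in 20 groups, and genes of one cell type are not independent of each other. Spleen replicate 1 accounted for 19 of them. In that array red cell and haem genes had log2 values of Icam4 6.06, Epb42 5.71, Nfe2 8.03, Sox6 6.13, Kel 7.45, Tal1 8.16, Abcb10 9.01, Urod 10.04 and Alas2 12.26, all under the other spleen arrays. Cell division and replication genes had Ccnb2 8.29, Ect2 6.86, Rrm2 10.11, H2ax 9.83 and Mki67 10.44 there, again the lowest of the tissue. The remaining genes set apart in spleen replicate 1 had Fcer1a 4.72, Ackr1 7.29, Hspa1b 9.30, Ccl5 12.08 and Ms4a4b 12.55. In spleen replicate 2 the log2 values were Cdh2 5.64, Gp5 7.78, Pf4 11.24, Ccr2 9.28, Scd1 13.02 and Cd28 9.28. In spleen replicate 4 the log2 values were Col1a2 11.59, Cdk6 9.33 and C6 8.15. Marrow replicate 1 had Hdc 10.47, Ccl9 10.91, Cdk6 10.40, Hspa1b 7.08, Batf3 6.37, Col14a1 7.81, Ccl5 9.56, Ms4a4b 9.61 and Synpo2 4.92. Marrow replicate 2 had Timd4 8.20 and Cd5 6.29. Marrow replicate 3 had Shox2 6.59, Tlx1 5.59 and Cadm4 5.09. Marrow replicate 5 had Elane 13.62, Gp5 10.39, Vwf 10.58, Cxcl12 12.35, Nr1h3 7.39, S1pr3 9.42, Cfb 6.75 and Smoc2 6.13. What sets these arrays apart was not tested. The last 2, S100a9 with 15.12 in marrow replicate 1 and Ngp with 14.84 in marrow replicate 3, meet the limit only because the other 4 marrow arrays hold 1 identical value near the top of the common distribution. Their gaps were 0.049 for S100a9 and 0.057 for Ngp.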

How the results depend on the processing

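The count of called genes was 2252 to 2797 with other pseudocounts, filters, weights and scalings of the log2 values, 2231 with the mean of all probe sets of a gene, 1826 with a test against the 2-fold limit itself, 3495 with ranks as percentiles and 2518 to 2636 with each of 10 arrays left out in turn. With the probe set of highest variance 3507 genes were called and 1837 were higher in spleen. Without joint normalization 2797 were called, 1019 higher in marrow and 1778 in spleen. With the 4 h spleens 1849 were called, 895 higher in marrow, and 58 were at least 8-fold higher in marrow. Without their array 3 these counts were 2171, 1091 and 73. Of 42 lists, 13 had a median of at least 10 percentile points with ranks as percentiles, against 20 beyond 2-fold on the log2 scale. The 3′ to 5′ difference of Pcx was 0.39 higher in marrow without joint normalization (exact permutation p = 0.0476). Fos had -0.018 with the 4 h spleens. The cause of these changes was not tested.

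Of 243 named genes 41 were no longer called with percentiles. For 32 of them, Camp, S100a8 and H2-Ab1 included, both tissues lay above the percentile of 90, where a shift of 10 points is out of reach, so for these the loss follows from the scale. With the 4 h spleens 39 changed their call or direction, and 31 without array 3. Leaving out any 1 of the 10 arrays ended no call of a named gene. The labels do not say whether equal replicate numbers pair the tissues. Correlations of the deviations of arrays with equal numbers were 0.262, 0.166, 0.051, -0.045 and 0.061, 2 of the 5 over 0.1. Of the 5 marrow arrays, 2 were closest to the spleen of their own number. With 5 values this check cannot decide whether the arrays are paired. A replicate block in the fit gave 2581 called genes, and no named gene changed its call. Small differences, and folds of genes whose lower mean is under 5.14, are the least certain.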
